A study of Oryza sativa Japonica Group and Oryza sativa Indica Group with 20 samples.

Results

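Callus of the japonica rice cultivar Tainung 67 (TNG67) that failed to regenerate (TF) was compared with TNG67 callus that regenerated (TS). These are 2 of the 10 RNA libraries among the 20 samples of the series, chosen by the submitters' stage labels, with 1 library a side. The series followed TNG67 and the indica cultivar IR64 from the embryo (T0) through callus induced (T1) and subcultured (T2) on medium containing 2,4-D, a synthetic auxin, at 2.5 mg/L. Both TF and TS calli had then been moved to regeneration medium, which held NAA, an auxin, at 0.02 mg/L and BAP, a cytokinin, at 2 mg/L. The comparison asks which transcripts differ between calli labelled with the same cultivar and medium but not the same outcome. Nothing in the labels says how many seeds or calli a library came from. No value below therefore has a replicate, and no p-value is given.

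Callus consists of proliferating plant cells that form no organs. A high ratio of cytokinin to auxin favours shoot formation from it, by way of new shoot meristems, and calli that do not form them stay unorganised, brown or make roots only. Japonica cultivars generally regenerate from callus more readily than indica cultivars. The deposited table lists loci by identifier without names, and the reference gene table used here matched 1 of its 54170 identifiers and none of the loci called different below. The calli could not be checked against marker genes for that reason, and loci are given by identifier and by the chromosome that the identifier encodes.

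Values are FPKM, fragment counts scaled to gene length and to the mapped fragments of the library. Fold changes are ratios of FPKM + 1, which understates the change of loci with low values, and the 22913 loci that reached 1 FPKM in 2 or more of the 10 libraries were compared. Summed FPKM was 709708 in TS and 710922 in TF, 19409 and 19893 loci reached 1 FPKM, and 27435 and 26915 were listed at 0. Read depth is unknown.

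The TNG67 TF library stood apart from the other TNG67 libraries in how it related to the other cultivar, so this is given first. At 160 loci that were at or under 0.5 FPKM in TNG67 T0, T1 and T2 and at or over 5 FPKM in IR64 T1 and T2, neither TS nor TF entered the choice. In TNG67 TS 15 of the 160 loci reached 5% of the mean IR64 level, and the highest stood at 15.4%. In TNG67 TF 76 of the 160 (47.5%) did, and 7 reached 50% or more. Where the IR64 level was near 5 FPKM, the 5% mark lay under the 0.5 FPKM allowed in TNG67 T0, T1 and T2. The FPKM of the 76 loci in TF was not summarised. The 160 loci were not alike in TF, where 59 stayed under 1% of the IR64 level while the 76 had a median of 24.5%. The loci that reached 5% in TF were spread over all 12 chromosomes, from 12 of 13 on chromosome 9 and 9 of 11 on chromosome 11 to 4 of 20 on chromosome 3 and 1 of 6 on chromosome 10.

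**Figure D1:**
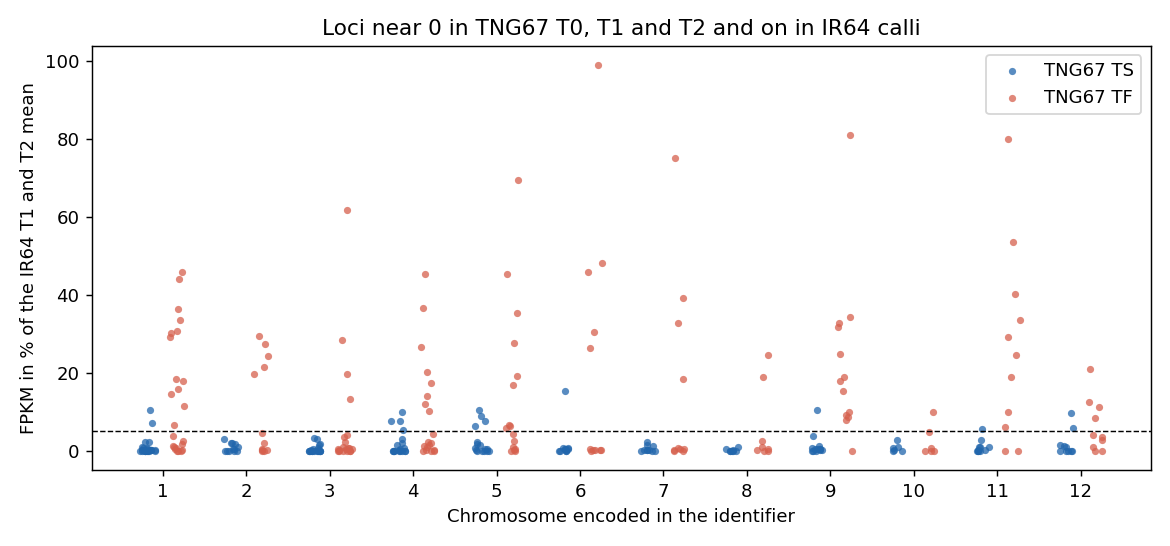
Level of 160 loci in TNG67 TS (blue) and TNG67 TF (red), in percent of their mean FPKM in IR64 T1 and T2, by chromosome; each point is 1 locus and the dashed line marks 5%. TS stays near 0, with 15 loci at 5% or more, while TF splits into loci near 0 and 76 loci at 5% or more.

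The reverse choice, 316 loci near 0 in IR64 T0, T1 and T2 and at or over 5 FPKM in TNG67 T1 and T2, tells how far TF kept TNG67 transcripts. None of the 316 was under 5% of its TNG67 T1 and T2 level in TF. The median was 74.9% in TF (quartiles 54.3% and 99.2%) against 110.4% in TS (quartiles 88.2% and 136%), and 71 loci in TF and 12 in TS were under 50%. In the failed IR64 callus 13 of these 316 loci (4.11%) reached 5% of the TNG67 level, against 6 in the successful one. TNG67 TF thus had transcripts at loci of both sets, in unequal measure from locus to locus. The sets were chosen on FPKM alone, and no sequence differences between the cultivars were examined. The identity and purity of the library labelled TNG67 TF were not tested, and every TNG67 TF value below is that of the library so labelled. How far this enters the comparison of TF with TS was not tested either, and the main counts are also given below for loci less than 2-fold apart between the cultivars.

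Between TF and TS, 556 loci (2.43% of those tested) were at least 4-fold higher in TF and 138 (0.602%) at least 4-fold lower. The lean to higher values in TF grew with the fold: 1890 higher and 1162 lower at 2-fold, 162 and 24 at 8-fold, 55 and 4 at 16-fold and 15 and 1 at 32-fold. The median difference over all loci was -0.08 on the log2 scale. The loci higher in TF had a median of 1.09 FPKM in TS and 14.2 FPKM in TF, and 45 of them were listed at 0 in TS. Of these, 346 reached 10 FPKM in TF, 42 reached 100 FPKM and 3 reached 1000 FPKM. The loci lower in TF had a median of 21.6 FPKM in TS and 2.37 FPKM in TF, and 9 were listed at 0 in TF. As these are bulk samples, fewer cells of a type and less RNA per cell cannot be told apart. Just outside the cutoff, 1334 loci were 2- to 4-fold higher and 1024 were 2- to 4-fold lower in TF.

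Most of the loci that differed were ones at which the cultivars differ in callus. The cultivars were compared at T1 and T2, which share no library with the TF and TS pair, on the mean of log2(FPKM + 1). The classes are still not independent of the calls. TNG67 T1 and T2 correlated with TS at 0.934 and 0.972 (Pearson), and with TF at 0.900 and 0.919. Loci picked for a low TS value therefore tend to be low in TNG67 T1 and T2 as well. Of the 556 loci higher in TF, 468 (84.2%) had an IR64 level at least 2-fold above that of TNG67, where 15.8% of all tested loci were. Of the 138 loci lower in TF, 109 (79.0%) were at least 2-fold higher in TNG67, where 13.8% of all tested loci were. The median TF minus TS difference moved through the classes in step, from -0.68 (log2) at the 1277 loci at least 4-fold higher in TNG67, through -0.50, -0.10 and 0.50, to 1.25 at the 1167 loci at least 4-fold higher in IR64. In that last class 334 loci (28.6%) were at least 4-fold higher in TF and 3 (0.257%) at least 4-fold lower.

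**Figure D2:**
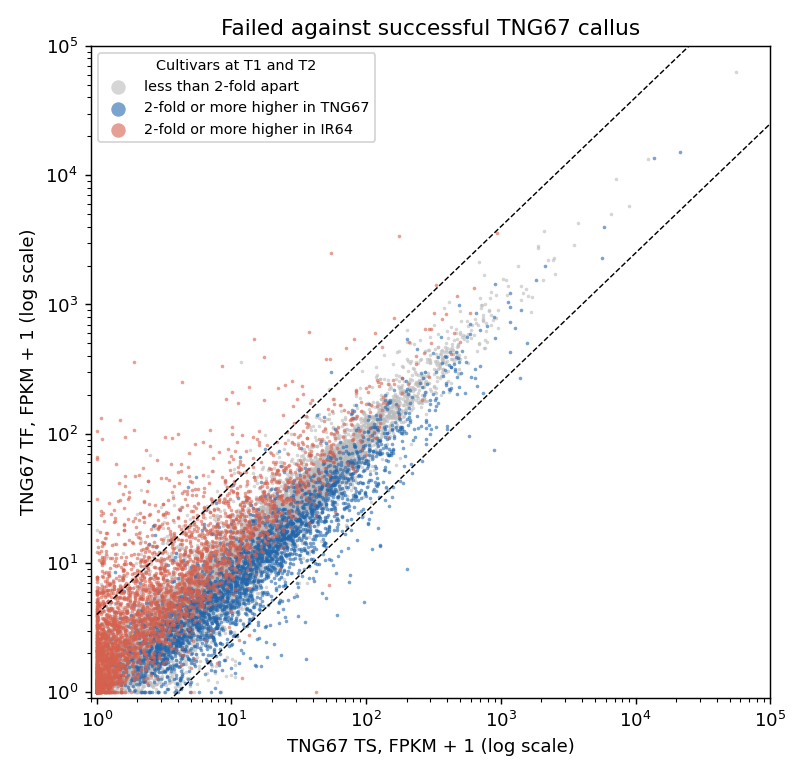
FPKM + 1 of 22913 loci in TNG67 TS (x) and TNG67 TF (y), both on log scales, coloured by the cultivar difference at T1 and T2; dashed lines mark 4-fold. Of the 556 loci above the upper line 468 are higher in IR64 (red), and of the 138 below the lower line 109 are higher in TNG67 (blue).

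The IR64 pair, made of other libraries, gives the same measure for the other cultivar. There 613 loci were at least 4-fold higher in TF (2.68%) and 101 at least 4-fold lower (0.441%). Of the 613, 281 (45.8%) were at least 2-fold higher in TNG67 at T1 and T2, 264 (43.1%) were less than 2-fold apart and 68 (11.1%) were higher in IR64. Of the 101, 76 (75.2%) were higher in IR64. Over all tested loci 13.8% were at least 2-fold higher in TNG67, 70.4% less than 2-fold apart and 15.8% at least 2-fold higher in IR64. In both cultivars the loci higher in TF were more often high in the other cultivar than in their own. The share less than 2-fold apart was 13.3% in TNG67 and 43.1% in IR64, both under the 70.4% of all tested loci. No test of that difference can be made with 1 library a side.

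**Figure D3:**
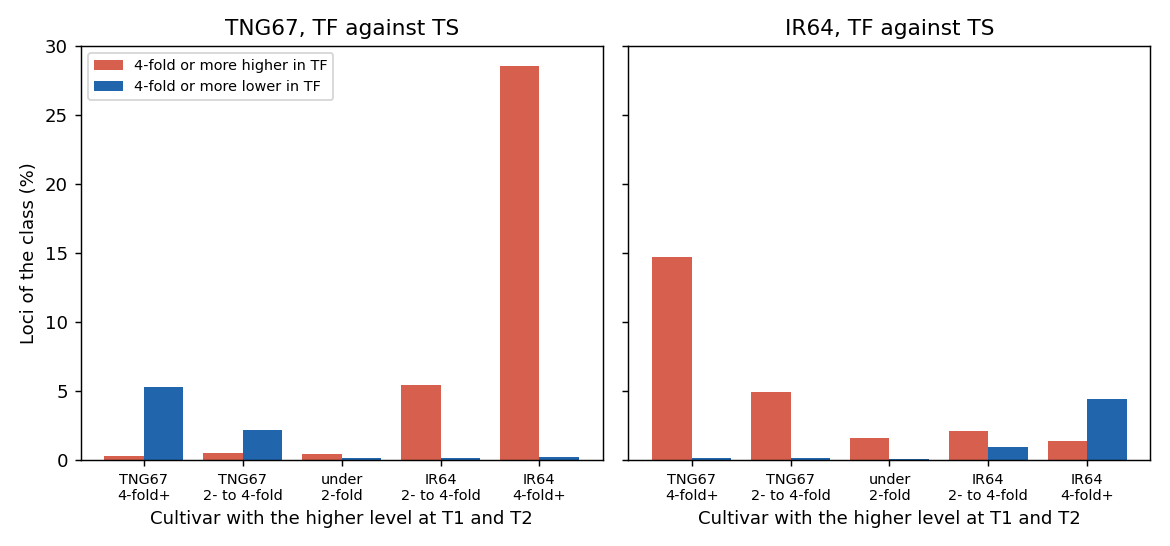
Percent of loci at least 4-fold higher (red) or lower (blue) in TF than TS, in TNG67 (left) and IR64 (right), for 5 classes of loci by the cultivar with the higher level at T1 and T2. In TNG67 the share higher in TF is 28.6% where IR64 is at least 4-fold higher, and in IR64 it is 14.7% where TNG67 is at least 4-fold higher.

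TF did not simply take on the IR64 level. On a linear scale with 0 at the mean of TNG67 T1 and T2 and 1 at that of IR64 T1 and T2, TF had a median of 0.19 over the 702 loci at least 4-fold higher in IR64 in both stages, with 17.9% past the midpoint, and TS had a median of 0.00 with 0.142% past it. Over the 900 loci at least 4-fold higher in TNG67, TF had a median of 0.33, with 33.1% past the midpoint. TS had a median of -0.13, thus lying on the far side of TNG67 T1 and T2. A fall at loci high in its own cultivar was also seen in IR64 TF. With 0 at IR64 and 1 at TNG67, IR64 TF had a median of 0.19 over the 702 loci higher in IR64, with 27.2% past the midpoint. Its median was 0.0003 over the 900 loci higher in TNG67. As the required gap between the cultivars grew to 32-fold, the TNG67 TF median fell to 0.003 at the 32 loci higher in IR64 but was 0.25 at the 79 loci higher in TNG67. Of the 556 loci higher in TF, 169 lay within the range of IR64 T1, T2 and TS, 239 below it and 148 above it.

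Both calli were also set against the subcultured callus (T2), for loci that had been chosen on TF and TS, so that the split below is a description. Of the 556 loci higher in TF, 463 were at least 2-fold above T2 in TF alone, 19 were at least 2-fold below T2 in TS alone, and 74 did both. Of the 138 loci lower in TF, 66 were at least 2-fold below T2 in TF alone, 35 were at least 2-fold above T2 in TS alone, and 37 did both. Over all tested loci TF was at least 2-fold above T2 at 9.0% and below it at 4.74%, and TS above it at 2.63% and below it at 1.82%. On the FPKM + 1 scale a locus under 1 FPKM in T2 cannot lie 2-fold below it, which limits the count of loci at which TS was below T2: it was 93 of the 556, and 464 of 1440 with 0.1 FPKM added in place of 1.

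The embryo lay at least 2-fold from T2, on the same side as TF, at a minority of the loci. Loci at which it lay on the other side, or on the same side by less than 2-fold, were not counted. At 165 of the 556 higher loci (29.7%) the TNG67 embryo was also at least 2-fold above T2, where 21.5% of all tested loci were. At 53 of the 138 lower loci (38.4%) the embryo was at least 2-fold below T2, where 17.7% of all tested loci were. These shares are not independent of the choice of loci. Loci picked for a low or high TS value tend to be low or high in T2 as well, which by itself puts the embryo more often on the other side of T2. The same holds for the embryo shares given further below. The median of the 556 loci was 1.90 FPKM in the TNG67 embryo, 2.62 in T1, 1.63 in T2, 1.09 in TS and 14.2 in TF, while in IR64 it was 3.08 in the embryo and 14.6, 18.4, 21.4 and 19.2 in T1, T2, TS and TF. The median of the 138 loci was 7.61, 10.4, 9.14, 21.6 and 2.37 FPKM over the same TNG67 stages, 7.16 in the IR64 embryo and 0.789 to 1.68 in the IR64 calli. The 556 loci held 0.393% of summed FPKM in TS and 4.00% in TF.

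**Figure D4:**
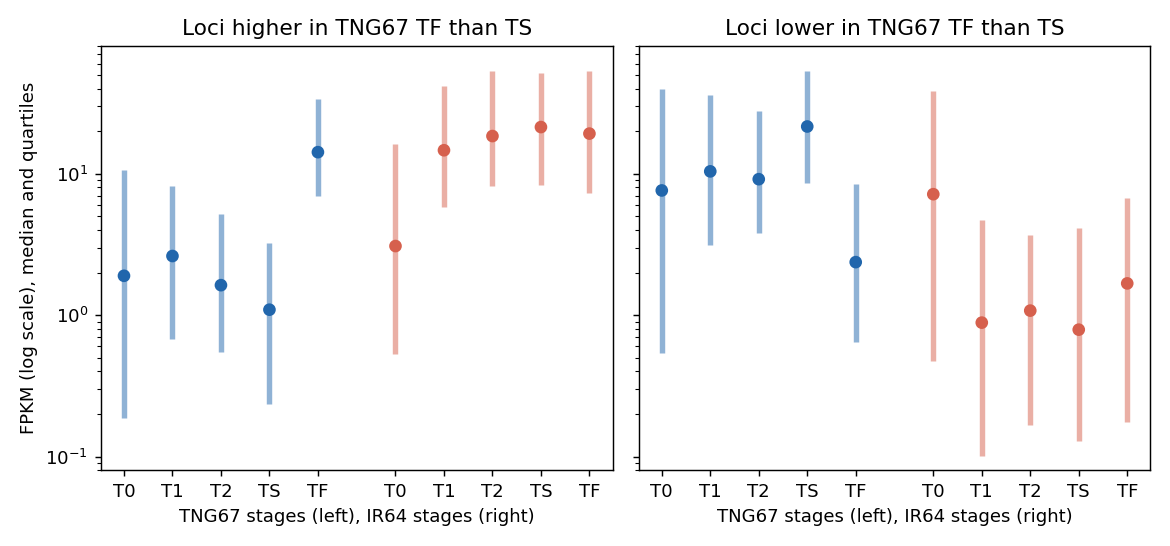
Median (point) and quartiles (bar) of FPKM, log scale, over the 556 loci higher (left) and the 138 loci lower (right) in TNG67 TF than TS, in the 5 TNG67 (blue) and 5 IR64 (red) libraries. The loci were chosen on TF and TS of TNG67, where medians of 1.09 and 14.2 FPKM, and of 21.6 and 2.37 FPKM, describe the choice; the other libraries did not enter it except through the filter on low values.

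By size of change, LOC_Os10g40520 on chromosome 10 led the loci higher in TF, at 0.884 FPKM in TS and 361 in TF (log2 difference 7.59). It was lower at each later TNG67 stage, with 99.0 FPKM in the embryo, 55.5 in T1 and 21.9 in T2, and stood at 122 in the IR64 embryo and 230.1 to 406 in the IR64 calli. TF was therefore at the IR64 callus level and TS far below every other library. LOC_Os11g24140 on chromosome 11 had a listed 0 in both embryos and stood at 0.362, 2.26 and 0.0732 FPKM in TNG67 T1, T2 and TS, and at 132 in TF. In IR64 it stood at 140.0, 45.3, 35.6 and 10.9 FPKM in T1, T2, TS and TF, so its order between TF and TS was the opposite in that cultivar.

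Among loci lower in TF, LOC_Os12g38650 on chromosome 12 was listed at 0 in TF alone. It stood at 152, 53.4, 44.6 and 41.2 FPKM in TNG67 T0, T1, T2 and TS and at 50.8 to 210.1 in the 5 IR64 libraries. A listed 0 can be a failed estimate, so no fold is given against it. LOC_Os12g22970, also on chromosome 12 and summed over its 2 rows, stood at 278, 86.1, 68.0 and 200.4 FPKM in TNG67 T0, T1, T2 and TS and at 8.0 in TF. In IR64 it was at 219.7 FPKM in the embryo and 11.1 to 17.3 in the calli, so TF lay below all IR64 calli and TS near the embryos.

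The largest differences in FPKM itself fell on other loci. LOC_Os02g41630 on chromosome 2 was at 175 FPKM in TS and 3368 in TF, after 2529.6 in the TNG67 embryo, 347 in T1 and 219.6 in T2. It was at 653 FPKM in the IR64 embryo and 3304 to 7922 in the IR64 calli. LOC_Os10g31460 on chromosome 10, summed over its 3 rows, was at 53.7 FPKM in TS and 2484 in TF, after 993, 193 and 53.3 in TNG67 T0, T1 and T2, and at 797 to 1686 in the IR64 calli. Both were thus abundant in the TNG67 embryo, low in TNG67 T2 and TS, and high again in TF. In the other direction LOC_Os02g49720 on chromosome 2 was at 1386 FPKM in TS and 267 in TF, against 411 in T1 and 881 in T2, and at 17.0 to 74.7 in the IR64 calli. LOC_Os08g36910 on chromosome 8 was at 2532 FPKM in TNG67 T1, 249 in T2, 888 in TS and 73.4 in TF, and at 4.28 to 10.3 in the IR64 calli.

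**Figure D5:**
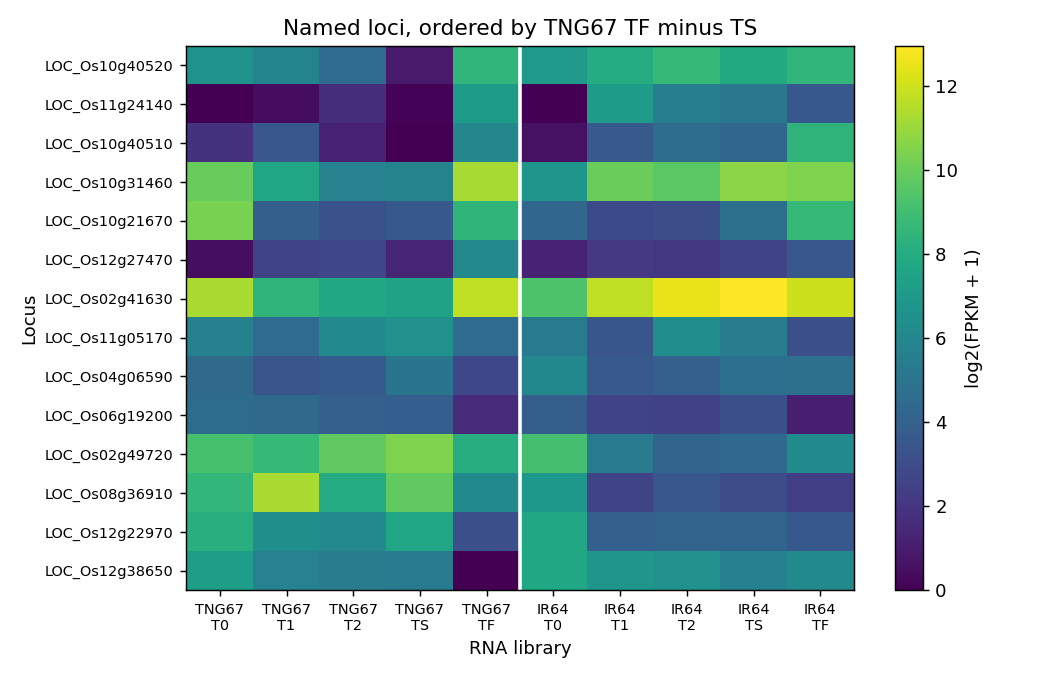
log2(FPKM + 1) of the 14 named loci (rows, ordered by TF minus TS in TNG67) in the 10 RNA libraries (columns, TNG67 left and IR64 right of the white line). The TNG67 TF cell is within the range of the IR64 calli for LOC_Os02g41630 and above it for LOC_Os10g31460. LOC_Os10g21670 is high in TF of both cultivars and in the TNG67 embryo.

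Loci at which the cultivars differed less in callus were then taken alone. Among the 16142 loci (70.4% of those tested) less than 2-fold apart at T1 and T2, 74 (0.458%) were at least 4-fold higher in TF and 22 (0.136%) at least 4-fold lower. With TS added to the stages that define the class, which then shares TS with the comparison, the counts were 55 and 12 of 15932. At the 74 loci the median was 2.64 FPKM in T2, 1.82 in TS and 15.5 in TF, and TF was above the range of IR64 T1, T2 and TS at 59. That range leaves out IR64 TF, which had the highest IR64 median at these loci, 9.35 FPKM. The IR64 medians in T1, T2 and TS were 3.28, 5.99 and 5.33 FPKM. Each was above the TNG67 median of its stage, which was 2.79 FPKM in T1, so the class did not remove the cultivar difference in full. In TNG67, TF alone was at least 2-fold above T2 at 61 of the 74, TS alone was at least 2-fold below it at 7, and 6 did both. The embryo was at least 2-fold above T2 at 22 of the 74 (29.7%), beside the 21.5% of all tested loci. Its median over the 74 loci, 2.31 FPKM, was nonetheless below that of T2. At the 22 loci the median was 2.66 FPKM in T2, 7.77 in TS and 0.436 in TF. In IR64 it was 1.30 FPKM in T2 and 0.841 in TS. Of these 22, TF alone was at least 2-fold below T2 at 5, TS alone was at least 2-fold above it at 11, and 6 did both. The embryo was at least 2-fold below T2 at 6 of the 22 (27.3%), beside the 17.7% of all tested loci. Its median over the 22 loci, 4.62 FPKM, was nonetheless above that of T2.

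LOC_Os10g21670 on chromosome 10 led the loci less than 2-fold apart over T1, T2 and TS. It was at 1315 FPKM in the TNG67 embryo, 14.2 in T1, 8.61 in T2, 10.8 in TS and 355 in TF. In IR64 it was at 18.1 FPKM in the embryo, 6.41, 7.68 and 26.5 in T1, T2 and TS, and 409 in TF. It was thus low in the 6 calli other than TF and high in TF of both cultivars. LOC_Os12g27470 on chromosome 12 was at 67.2 FPKM in TNG67 TF and at 0.380 to 5.66 in the other TNG67 libraries, and at 10.4 in IR64 TF and 1.38 to 5.25 in the other IR64 libraries. TF was the highest library of each cultivar, with a log2 difference from TS of 4.77 in TNG67 and 0.86 in IR64. In the other direction, after LOC_Os12g38650, LOC_Os04g06590 on chromosome 4 was at 30.5 FPKM in TS and 6.02 in TF (log2 difference -2.16), against 9.69 in T1 and 11.6 in T2. In IR64 it was at 25.3 FPKM in TS and 26.7 in TF.

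The loci called in TNG67 were then read in the IR64 pair. Of the 556 loci higher in TNG67 TF, 30 (5.40%) passed the 4-fold cutoff in the same direction in IR64, beside 2.68% of all tested loci, and 26 (4.68%) were at least 4-fold lower there, beside 0.441%. A further 357 (64.2%) differed by less than 2-fold between IR64 TF and TS, where 87.2% of all tested loci did. Of the 138 lower loci, 2 (1.45%) were also lower in IR64 TF and 16 (11.6%) were higher, beside the same 0.441% and 2.68%. The cultivar classes at T1 and T2 had other shares. The class at least 4-fold higher in IR64 held 334 of the 556. Of that class 1.37% was at least 4-fold higher in IR64 TF and 4.46% lower. The class 2- to 4-fold higher in IR64 had 2.13% and 0.981%. The class at least 4-fold higher in TNG67 held 68 of the 138. Of that class 14.7% was at least 4-fold higher in IR64 TF and 0.157% lower. The class 2- to 4-fold higher in TNG67 had 4.94% and 0.159%. Among the 74 loci less than 2-fold apart between the cultivars at T1 and T2, 11 (14.9%) were also higher in IR64 TF, beside 1.64% of that class, and none was at least 4-fold lower. Of the 22 lower loci of that class, 1 (4.55%) was also lower in IR64 TF, beside 0.124% of the class, and 3 (13.6%) were higher. LOC_Os10g40510, the neighbour of LOC_Os10g40520 in identifier order, was listed at 0 in TNG67 TS and stood at 63.3 FPKM in TF, with 2.77, 10.3 and 1.33 in T0, T1 and T2. In IR64 it was at 348 FPKM in TF and 0.506 to 23.8 in the other libraries. The loci lower in both were LOC_Os06g19200, at 13.7 to 22.6 FPKM in the other TNG67 libraries and 2.04 in TF, and LOC_Os11g05170, at 93.0 in TS, 71.2 in T2, 21.8 in T1 and 22.1 in TF. In IR64 TF they stood at 1.17 and 7.80 FPKM, the lowest level of that cultivar. In TNG67 both were less than 4-fold lower with 5 FPKM added in place of 1, at log2 differences of -1.41 and -1.86, and LOC_Os11g05170 also with median-ratio scaling, at -1.95.

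Loci higher in TF lay beside each other more often than their overall share. In identifier order among tested loci, 79 of the 556 (14.2%) had a neighbour also at least 4-fold higher, against 4.71% of all tested loci, and 15 of the 138 (10.9%) had a neighbour also lower, against 1.19%. Runs of 3 or more numbered 4 for higher loci and 1 for lower loci. The longest was of 5 loci on chromosome 7, listed at 0 in the TNG67 embryo, at 0.429 to 3.97 FPKM in TS and 9.43 to 41.9 in TF, and at 39.2 to 115 in IR64 TS. A run of 4 on chromosome 10, which holds LOC_Os10g31460, was at 0.139 to 159 FPKM in TS and 13.1 to 2484 in TF. The lower run, of 3 loci on chromosome 3, was at 6.58 to 10.5 FPKM in TS and 0.0765 to 0.693 in TF, and in IR64 at 0 to 0.386 in TS and 1.18 to 9.55 in TF. That run therefore had the opposite order in the cultivars. Of the 74 higher loci less than 2-fold apart between the cultivars, 8 (10.8%) had a neighbour among the 556. Near-identical neighbours share reads, and how such reads were divided is known only in that unique alignments were kept. By chromosome, the share higher in TF ran from 1.56% on chromosome 12 to 3.94% on chromosome 10, and the share lower from 0.331% on chromosome 3 to 1.01% on chromosome 10.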

How the data were processed

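RNA libraries were made from 100 ng of RNA each. Per the labels' protocols, the authors checked reads with FastQC, aligned them with Bowtie to the Nipponbare genome IRGSP-1.0 with up to 2 mismatches, retained uniquely aligned reads and computed FPKM per gene with TopHat. For versions, gene models and strand, the setting is not given in the sources. IR64 reads were mapped to a japonica genome, which can lower their values where the sequences differ.

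The deposited table held FPKM on 55166 rows, covering 54170 loci, and rows of the same locus (968 loci) were summed. TF and TS were compared as a ratio of FPKM + 1 with the 4-fold cutoff the labels name. With 1 library a side there was no test. Loci were named by a rule of at least 4-fold and at least 10 FPKM in the higher library, 2 each way by log2 difference, by log2 difference among loci less than 2-fold apart between the cultivars, by FPKM difference, and by change in both cultivars. Gene lists by product name were not run, since no name could be matched. The comparison, lists and rules were chosen with earlier results of these data known, and the T1 and T2 classes and the loci near 0 after seeing the values. Calculations used Python 3.11.15 with pandas 2.3.3 and numpy 2.4.6, and plots matplotlib 3.10.9. Bisulfite samples were not analysed here.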

Additional observations from a re-analysis of the deposited data

Results flagged for a closer look

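Loci at least 4-fold higher in TF in one cultivar and at least 4-fold lower in the other numbered 42, of which 26 were higher in TNG67 TF and 16 higher in IR64 TF. The 26 were 4.68% of the 556 loci, beside 0.441% of all tested loci lower in IR64 TF. In the class at least 4-fold higher in IR64 at T1 and T2 that share was 4.46%. The 16 were 11.6% of the 138 loci, beside 2.68% of all tested loci higher in IR64 TF. In the class at least 4-fold higher in TNG67 that share was 14.7%. The 42 loci are listed because the single pairs of the cultivars moved in opposite directions, and the difference was not tested.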

How the results depend on the processing

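Counts depended on the pseudocount and the cutoff, and more loci were higher than lower in TF in each setting run. Higher and lower loci numbered 1440 and 436 with a pseudocount of 0.1 FPKM, 162 and 36 with 5 FPKM, 1890 and 1162 at 2-fold and 162 and 24 at 8-fold. Leaving out loci at least 2-fold apart between the cultivars left 55 and 12 (class from T1, T2 and TS) or 74 and 22 (T1 and T2). Without a filter, with a mean FPKM of 5 or more, with 1 FPKM or more in TF or TS, either scaling, or single-row loci, they were 438 to 590 and 92 to 149. Higher loci with TF at least 2-fold above T2 numbered 1322, 160 and 1472 at pseudocounts of 0.1 and 5 and at 2-fold (537 as reported), and those with TS 2-fold below it 464, 16 and 164 (93). Lower loci with TF below T2 numbered 354, 27 and 553 (103), and those with TS above it 185, 19 and 215 (72). The share of higher loci that were IR64-high stayed at 82.5% to 88.1%, and of lower loci that were TNG67-high at 75.7% to 86.1%. With the class from T1, T2 and TS, the TF position was 0.01 at 16-fold loci higher in IR64 (0.09 at 8-fold, 0.004 at 32-fold) and 0.29 at those higher in TNG67 (0.28 to 0.33). LOC_Os11g05170 fell short of 4-fold under median-ratio scaling (log2 -1.95) and, with LOC_Os06g19200 and LOC_Os04g06590, at a pseudocount of 5. No paired analysis was possible because each group has 1 library. Depth is unknown, so low values carry no interval.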
